A study of Drosophila melanogaster with 4 samples.

Results

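The 7 digestive lysozyme genes of Drosophila melanogaster, LysB, LysC, LysD, LysE, LysP, LysS and LysX, are the subject here. They are all the rows whose symbol is Lys followed by a single capital letter, 7 of 12116 genes listed. Whole larvae of the third instar, at the wandering stage, were profiled in 2 genotypes. One was homozygous for hsromega[66], called hsromega66 here, a mutant allele of Hsromega, which makes a long noncoding RNA of the nucleus, and the other was the wild-type stock Oregon R+, the control. Each genotype was sequenced as 2 rRNA-depleted total RNA libraries, each from the pooled RNA of 5 larvae. The authors' table holds 1 pooled FPKM (a level scaled for transcript length and library size) per transcript and genotype, so no spread between libraries can be given and depth is unknown. Hsromega itself was listed at 0.290 FPKM in hsromega66 and 232 FPKM in control, and this difference too missed the threshold used below, with a q of 0.998 in the authors' deposited table. The sources used here do not say how the allele was made or whether the stocks share a genetic background.

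Lysozymes cut the sugar backbone of peptidoglycan, the polymer of the bacterial cell wall. Most animals use them in defence, whereas flies whose larvae feed on microbes in fermenting fruit also use a set of them in the gut as digestive enzymes. As background from earlier work in this species, LysB, LysC, LysD and LysE are near-identical tandem copies expressed in the digestive tract. The annotation used here, however, lists LysC as a pseudogene of 242 bp. In that earlier work LysS is a gene of the larval gastric caeca and LysX is expressed in the midgut around metamorphosis. LysP is known from the adult salivary gland. The wandering stage follows the end of feeding, when the gut is emptied before pupariation.

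All 7 genes had a higher FPKM in hsromega66 than in control larvae, as 48.2% of all genes did, and their ratios fell into a large and a small class. The near-identical copies together stood at 4826 FPKM in hsromega66 and 235 FPKM in control, a ratio of 20.6. LysS and LysX each had a higher level in control than any single copy, and their ratios were 2.02 and 2.30. Only LysX rose by the authors' Cuffdiff test, which is taken here as a q value of at most 0.05 in the authors' deposited table. The other 6 genes did not pass it, so their values are given as listed and not as changes. Of these 7, 1 was higher and 0 were lower at that threshold, where 1.40% of all genes were higher and 0.908% lower.

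**Figure D1:**
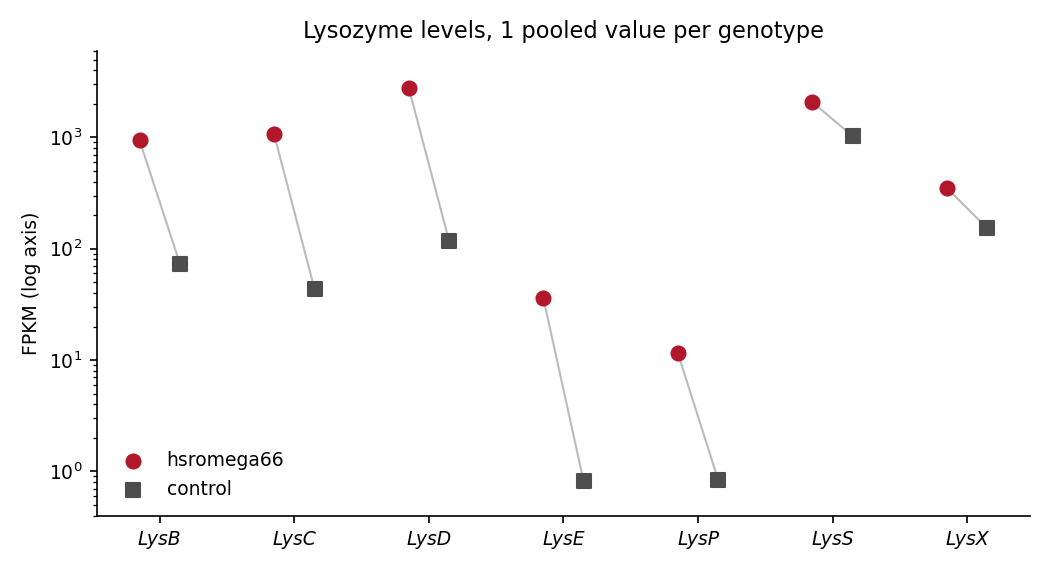
FPKM of each lysozyme gene (log axis) in hsromega66 (circles) and control (squares), 1 pooled value per genotype with no error bars because values per library were not used here. LysB, LysC, LysD, LysE and LysP have steep lines, with ratios between 12.9 and 44.5, and LysS and LysX have shallow ones, with ratios of 2.02 and 2.30.

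The near-identical copies were examined first. LysD, the most abundant of them, was listed at 2789 FPKM in hsromega66 and 117 FPKM in control, a ratio of 23.8. It ranked 52 of 12116 genes by level in hsromega66 and 771 in control. Its q in the authors' deposited table was 0.0684, with p = 0.00095, just outside the threshold. LysB was listed at 938 FPKM in hsromega66 and 73.0 FPKM in control, a ratio of 12.9, and its q in the authors' deposited table was 0.133 (p = 0.0023). LysD and LysB are the 2 members that the authors' deposited table classes as upregulated, a class given to 0.622% of all transcripts, which rests on the unadjusted p and the ratio.

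LysC and LysE also had large ratios, with no support from the deposited test. LysC was listed at 1062 FPKM in hsromega66 and 43.3 FPKM in control, a ratio of 24.5, with p = 0.283 and q = 0.998 in the authors' deposited table. LysE was the rarest copy, at 36.2 FPKM in hsromega66 and 0.813 FPKM in control, with p = 0.0643 and q = 0.998 in the authors' deposited table. Its ratio of 44.5 rests on a low control value, which ranked 11554 of 12116 genes. On the log2(FPKM + 1) scale, which damps ratios of low values, the differences of LysB, LysC, LysD and LysE were 3.67, 4.58, 4.56 and 4.36.

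Because reads from near-identical copies can be assigned to any of them, the single values of LysB, LysC, LysD and LysE are uncertain. Their sum is therefore also given. It still depends in part on that assignment, because the listed transcripts differ in length, from 242 bp for LysC to 611 bp for LysB. The sum exceeded the control value by 4591 FPKM, and the log2 difference on the FPKM + 1 scale was 4.36. Without LysC, the sum was 3764 FPKM in hsromega66 and 191 FPKM in control, a ratio of 19.7. LysD was the highest and LysE the lowest copy in both genotypes, while LysB held a smaller part of the sum in hsromega66 and LysE a larger one. LysD held 57.8% of it in hsromega66 and 50.1% in control, LysB 19.4% and 31.1%, LysC 22.0% and 18.5%, and LysE 0.750% and 0.346%. The sum has no p-value of its own, because the deposited test was made for single transcripts.

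LysS, the gene known from the gastric caeca, was the main lysozyme of control larvae. It was listed at 2068 FPKM in hsromega66 and 1025 FPKM in control, a ratio of 2.02. Its p in the authors' deposited table was 0.0495 and its q 0.998, so it did not pass. LysX, the gene known from the midgut around metamorphosis, rose to 350 FPKM in hsromega66, against 152 FPKM in control, a ratio of 2.30, and the authors' deposited table gives it a q of 0.00983. LysP, known from the adult salivary gland, was the scarcest lysozyme in hsromega66, at 11.6 FPKM, against 0.836 FPKM in control. Its ratio of 13.8 also rests on a low control value, and its q in the authors' deposited table was 0.998 (p = 0.0789).

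FPKM is a level per length, so the genes can be set in order of listed value within each genotype. The places of LysB, LysC, LysD and LysE depend on how shared reads were divided among them, which is unknown. In hsromega66 larvae LysD stood highest, followed by LysS, LysC, LysB, LysX, LysE and LysP. In control larvae the order was LysS, LysX, LysD, LysB, LysC, LysP and LysE. With 1 value per genotype, whether neighbours in either order differ beyond the spread between libraries cannot be said. LysP and LysE in control, at 0.836 and 0.813 FPKM, were the closest pair.

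The make-up of the lysozyme RNA was compared next. The 7 genes summed to 7255 FPKM in hsromega66 and 1412 FPKM in control, a ratio of 5.14. LysS held 28.5% of this sum in hsromega66 and 72.6% in control. The near-identical copies held 66.5% in hsromega66 and 16.6% in control, and LysD alone 38.4% and 8.32%. LysX held 4.82% and 10.8%. Of the FPKM summed over all genes listed, the 7 lysozymes made up 0.778% in hsromega66 and 0.145% in control.

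**Figure D2:**
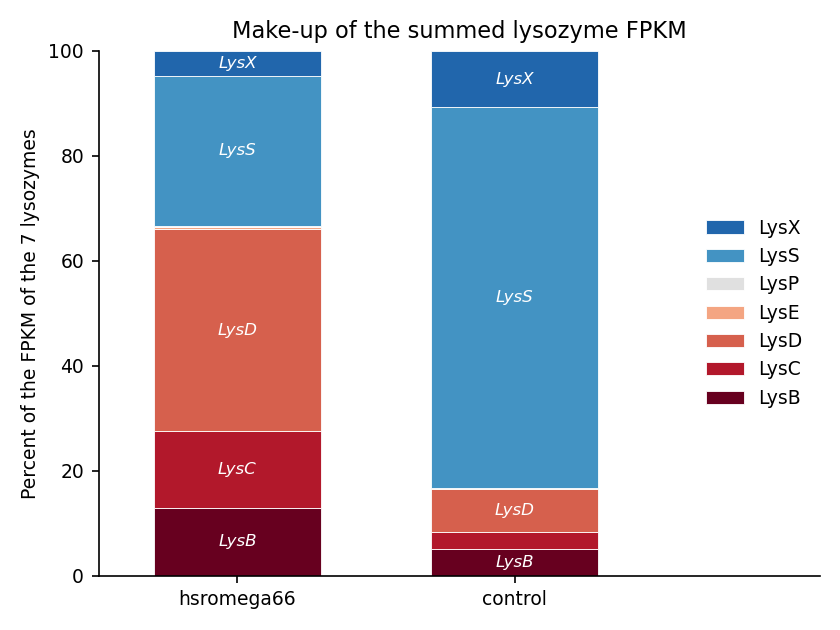
Percent of the summed FPKM of the 7 lysozymes held by each gene, hsromega66 on the left and control on the right, 1 pooled value per genotype. LysS holds 28.5% of the hsromega66 bar and 72.6% of the control bar, and LysD holds 38.4% and 8.32%.

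Transcript length bears on these shares. The listed transcript of LysC is 242 bp long, under 3 lengths of the 100 bp reads, and those of the other members are 480 to 615 bp. FPKM divides by length, and values of very short transcripts are the least certain. Weighted by annotated transcript length, LysC held 7.53% of the lysozyme sum in hsromega66 and 1.49% in control, against 14.6% and 3.07% by FPKM. Read numbers could not be recovered, so these are not given as shares of fragments. The ratio of the summed copies moved little, to 19.6.

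**Figure D3:**
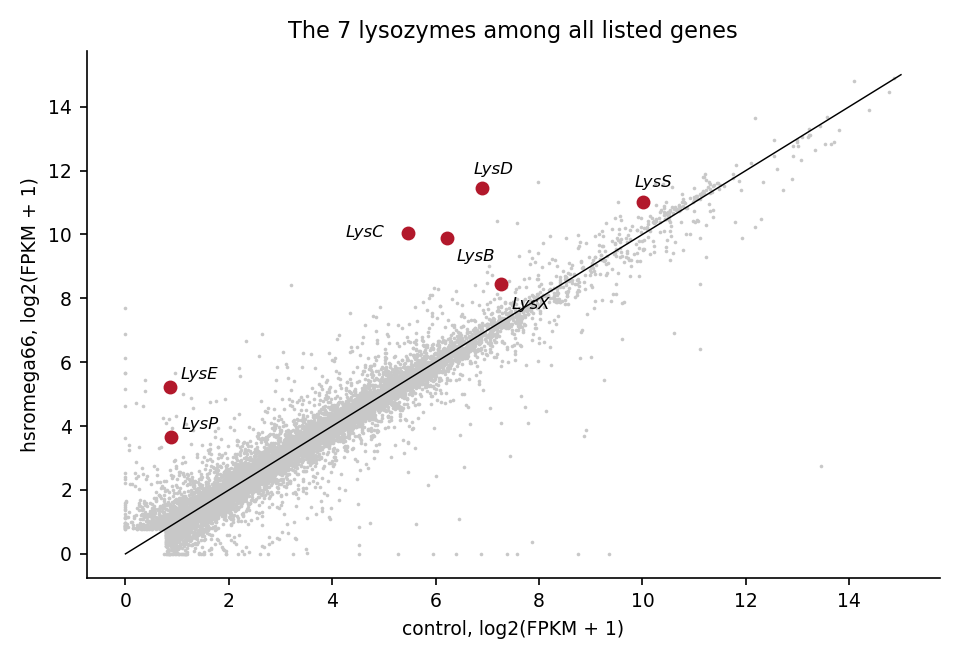
Level of every listed gene in hsromega66 (vertical axis) against control (horizontal axis), both as log2(FPKM + 1) of the authors' pooled values, with the line of equal levels. LysB, LysC, LysD, LysE and LysP (red) lie far above the line, and LysS and LysX lie about 1 log2 unit above it.

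Set beside all genes, the lysozymes stood high by ratio. Their median log2(FPKM + 1) difference was 3.67, and the median over all 12116 genes was -0.013. All 7 had a difference of at least 1, which 3.35% of genes reached, and 4 had a difference of at least 3, which 0.330% of genes reached. By rank of this difference, LysC, LysD, LysE and LysB stood at 12, 13, 15 and 20 of 12116 genes, LysP at 48, LysX at 295 and LysS at 401. Before adjustment, 4 of the 7, LysB, LysD, LysS and LysX, had a p no higher than 0.05 in the authors' deposited table, all with higher values in hsromega66, where 4.67% of all genes had such a p in that direction. The copies share reads, so these counts, and the median of 3.67, do not rest on 7 independent genes.

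The deposited test and the size of the ratio ranked the members differently. LysX, with the second lowest ratio, was the 1 call, and LysC, with a ratio of 24.5, had the highest p of the 7. In the whole table, 5 transcripts had at least 900 FPKM in hsromega66 and a log2 ratio of at least 3. Of these, 2 passed the q threshold, CG7587 and CG11911, and the 3 that did not were LysB, LysC and LysD. With at least 100 FPKM and the same ratio there were 11 transcripts, of which 6 passed, and LysB, LysC and LysD were 3 of the 5 that did not. With at least 100 FPKM and a log2 ratio of at least 2 there were 28, of which 20 passed, and these lysozymes were 3 of the 8 that did not. The cuts were not planned, and that of 900 FPKM lies just under LysB, at 938 FPKM, so the make-up of the first set depends on it. Pooled values do not show how the spread between libraries, or the assignment of shared reads, went into that test.

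The genes lie together on chromosome arm 3L (dm6 coordinates, Ensembl 115 annotation). LysX is at 1194739 to 1195302 on the minus strand. After a gap of 12068 bp follow LysB (1207371 to 1207981, plus strand), LysC (1210485 to 1210726, plus), LysD (1210717 to 1211196, minus), LysE (1212827 to 1213406, plus), LysP (1218082 to 1218696, minus) and LysS (1227747 to 1228238, plus). Every listed transcript has a single exon. The 6 protein-coding members encode 140 to 142 residues, and LysC is annotated as a pseudogene. LysC and LysD overlap by 10 bp on opposite strands, within the 3′ UTR of LysD. The sources used here do not say whether counting used strand, so reads in that overlap cannot be told apart. LysB has 2 annotated transcripts, and 1 of them was among the values analysed.

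All members but LysX lie inside the span of mwh (multiple wing hairs, a gene of wing hair polarity; 1200786 to 1232700, plus strand). None overlaps an annotated exon of it, and LysB, LysC, LysE and LysS are on its strand. The host gene did not share the lysozymes' ratio: mwh was listed at 1.77 FPKM in hsromega66 and 1.83 FPKM in control, with q = 0.998 in the authors' deposited table. Between LysP and LysS the reference genome carries a 412 retrotransposon of 7591 bp (1219647 to 1227237). The members with large ratios, LysB to LysP, lie on one side of it, as does LysX, with a ratio of 2.30. LysS lies on the other side. Whether either stock carries the element was not examined.

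The genes around the cluster had no such ratios. Of 14 other listed genes within 20 kb of a member, 0 were called by Cuffdiff q in the authors' deposited table, and 0 had an unadjusted p no higher than 0.05 there. Over all 12116 genes, 280 were called and 948 had such a p, so counts of 0 among 14 genes say little. The log2(FPKM + 1) differences of these 14 genes ran from -2.50 to 0.41, with a median of -0.29, and 5 lay above 0. The lowest was that of CG32335 (named meep in the Ensembl annotation), 4335 bp from LysB, at 0.394 FPKM in hsromega66 and 6.88 FPKM in control (p = 0.198 in the authors' deposited table). Aplip1, a kinesin and JNK adaptor gene that lies 1015 bp from LysX, stood at 3.67 FPKM in hsromega66 and 3.11 FPKM in control. CG33965, on the far side of LysS, stood at 5.45 FPKM in hsromega66 and 3.84 FPKM in control.

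**Figure D4:**
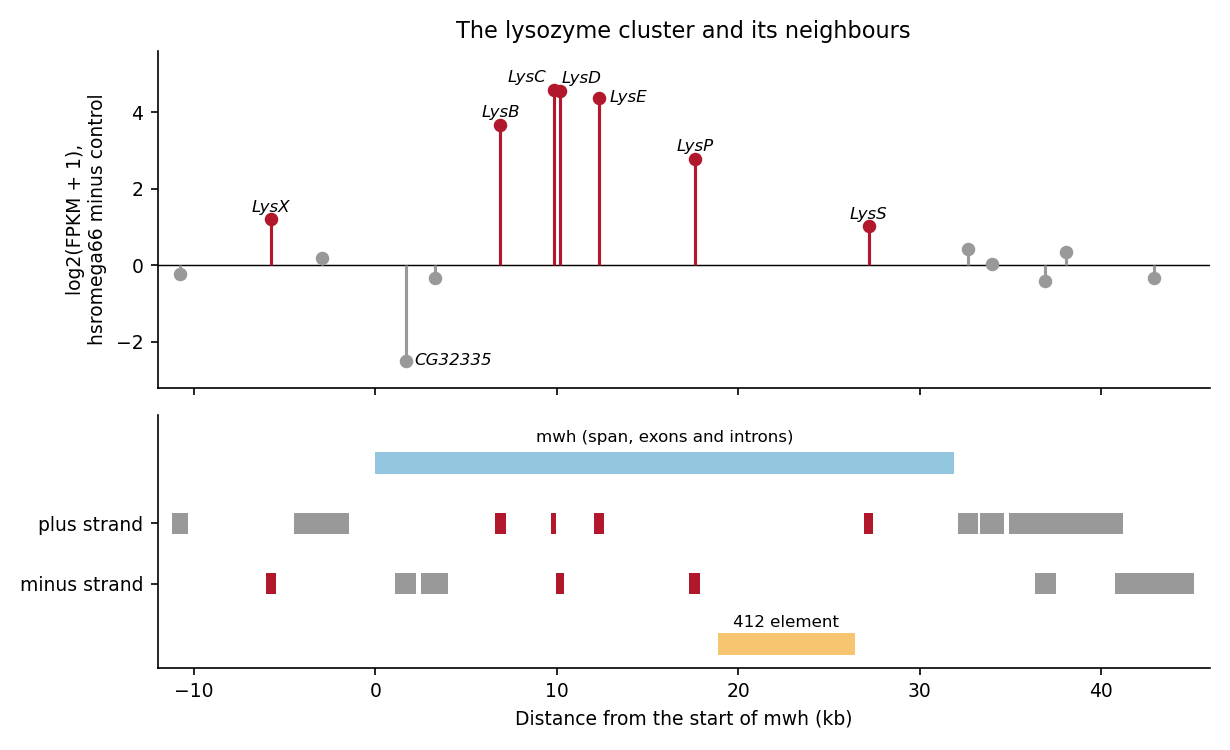
The lysozyme cluster by distance from the start of mwh (kb). The upper panel gives log2(FPKM + 1) of hsromega66 minus control for each lysozyme (red) and for the 9 neighbours in this window (grey), with mwh, at -0.034, not drawn there, and the lower panel gives the position and strand of each gene, where red points lie between 1.01 and 4.58 and grey points between -2.50 and 0.41.

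The lysozymes were also set beside other genes of the gut. In RNA from whole larvae, more cells of a type and more RNA per cell cannot be told apart. The 5 listed of 6 midgut markers (alphaTry, betaTry, Jon99Fi, Jon99Fii and Mal-A1) were all higher in hsromega66, 3 of them by the deposited q, and none was at 0. Over all genes, 48.2% had a higher value in hsromega66 and 1.40% were higher by that q. The 5 markers summed to 4409 FPKM in hsromega66 and 2253 FPKM in control, a ratio of 1.96. That ratio depends on the markers taken, since all 29 listed gut serine proteases summed to a ratio of 1.20, and Jon66Cii and Jon99Cii among them fell, as did the maltase gene Mal-A4. LysS and LysX had ratios of 2.02 and 2.30, and the summed near-identical copies one of 20.6. The part of midgut content in the lysozyme values was not tested. The sums of 4 markers each for salivary gland, fat body, haemocytes and muscle had ratios of 0.978, 0.923, 0.593 and 0.681. The salivary gland sum is mostly Sgs7 (30487 FPKM in hsromega66 and 29798 FPKM in control), and the median log2(FPKM + 1) difference of its 4 markers was -0.60.

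On the log2(FPKM + 1) scale, no gene of the other digestive lists had a difference as large as that of LysB, the lowest of the near-identical copies, and this contrast was not tested. By the plain FPKM ratio, CG7248 (17.9) and Muc55B (14.5), both of which rose, exceeded LysB (12.9). The counts that follow use the deposited q, by which 1.40% of all genes were higher and 0.908% lower. Among 29 listed serine proteases of the gut, 5 rose and 2 fell, with a median log2(FPKM + 1) difference of 0.53. Among 13 amylases and maltases, which digest starch and sugars, 3 rose and 1 fell, with a median of 0.26. Among 9 genes of the peritrophic matrix and mucins, which line the gut, 3 rose and none fell, with a median of 0.77, and the largest difference was that of Muc55B (72.8 FPKM in hsromega66 and 5.00 FPKM in control). Among 10 genes of midgut acid secretion and regional identity 1 rose, the protease gene Bace (78.9 FPKM in hsromega66 and 7.32 FPKM in control), with a median of 0.22. Vha100-4, a proton pump subunit gene of the acid region, stood at 6.03 FPKM in hsromega66 and 3.25 FPKM in control (q = 0.998 in the authors' deposited table).

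Of the lysozyme-like genes outside the cluster, none had a difference as large as those of the near-identical copies. Of 11 such genes sought, 7 were listed, and 0 of them were called by Cuffdiff q in the authors' deposited table. By that q 1.40% of all genes were higher and 0.908% lower, so 0 of 7 says little. CG16756 alone of the 7 had an unadjusted p no higher than 0.05. The median log2(FPKM + 1) difference of the 7 was -0.19, and 5 lay below 0. The most abundant, CG6426, stood at 142 FPKM in hsromega66 and 162 FPKM in control. CG14823 had the largest difference, at 4.67 FPKM in hsromega66 and 1.27 FPKM in control (p = 0.190 in the authors' deposited table). CG16756 lay lowest, at 2.07 FPKM in hsromega66 and 5.27 FPKM in control.

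**Figure D5:**
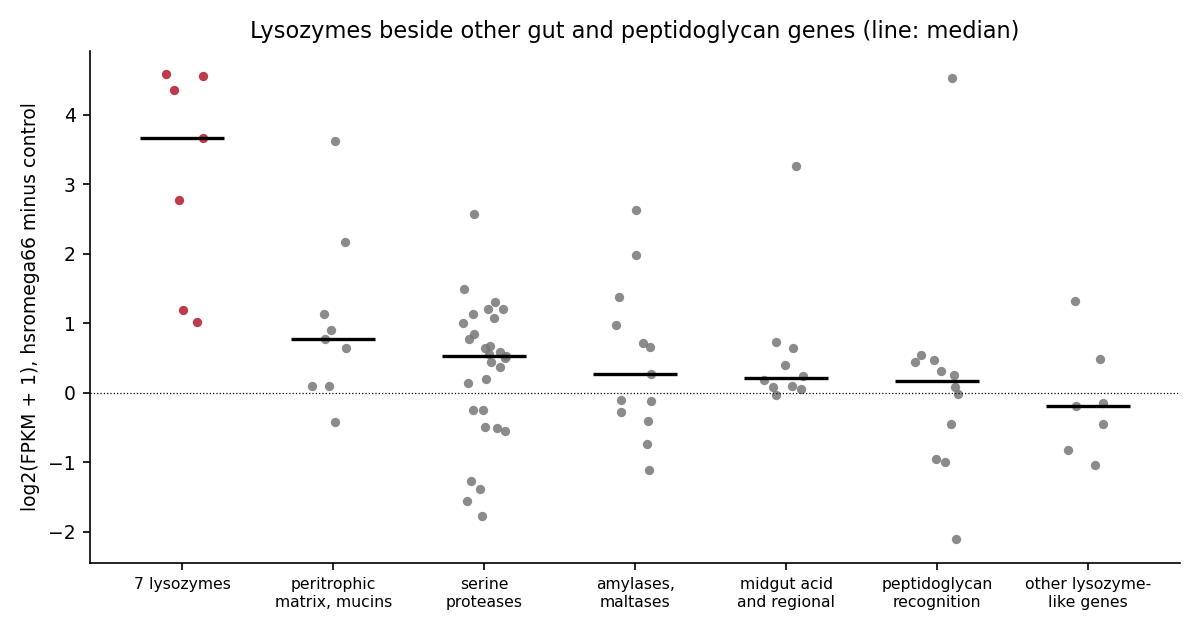
Log2(FPKM + 1) of hsromega66 minus control for the 7 lysozymes (red) and for the genes of 6 other lists with at least 1 FPKM in 1 genotype (grey), each point a gene and each bar the median. The lysozyme median is 3.67, the value of LysB, and the other medians lie between -0.19 and 0.77. LysB, LysC, LysD and LysE are near-identical copies that share reads, so the 7 points are not independent.

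The genes nearest to the summed near-identical copies were sought by distance over the 2 values of log2(FPKM + 1), which describes 1 pooled value for each genotype. CG7587 was nearest, at 3163 FPKM in hsromega66 and 251 FPKM in control, a distance of 0.62. CG11912 and CG11911 followed at distances of 1.89 and 1.94. CG11912 was listed at 1320 FPKM in hsromega66 and 189 FPKM in control, and CG11911 at 1368 and 145 FPKM. All 3 had q = 0.00546 in the authors' deposited table, its smallest value.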

How the data were processed

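Per the labels' protocols, rRNA-depleted stranded libraries were read as pairs of 100 bp. The tools were Cuffdiff 2.1.1, Cufflinks, Bowtie and TopHat, with genome dm6, per the submitters' processing notes. Per the file headers, the authors deposited pooled FPKM values, with log2 fold changes, p-values and q-values, for 21529 transcripts. Adjusting the authors' p-values over the whole table by the Benjamini-Hochberg method gave their q-values within 1e-06. A step of 1 read was sought in the products of FPKM and length of unspliced transcripts. At the best step 30.2% of hsromega66 and 31.0% of control values were whole within 10% of a step. Chance gives 20% at 1 fixed step and more at the best of many steps, as sought here. Read numbers could not be recovered.

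FPKM was summed per gene, and differences of lists use log2(FPKM + 1) and genes of at least 1 FPKM in 1 genotype. A gene was called where a transcript had a deposited q of at most 0.05. No test of separate libraries could be made. Nothing in the labels says that libraries came from separate cultures. Protein identity, shared windows and promoter motifs were planned but not computed, because no sequence was used here, so the copies were grouped from background knowledge. Named genes were the members, listed genes within 20 kb, called or most extreme list members, and the 3 nearest by distance, with further neighbours and list members named after their values were seen. Members and lists were chosen with earlier results of these data known. Coordinates are from Ensembl 115 (BDGP6.54), matching 12037 of 12116 genes. The call rule was tested on simulated data. Software was pandas 2.3.3, numpy 2.4.6 and matplotlib 3.10.9 under Python 3.11.15.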

Additional observations from a re-analysis of the deposited data

How the results depend on the processing

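The log2 differences of all 7 genes and their median kept their direction, and stayed within 1.5 times, with a pseudocount of 0.1 and with none. Centring on expressed genes, whose median was -0.011, moved them little. Taking the most abundant transcript alone could change nothing, because each of the 7 genes has 1 listed transcript. The most affected were LysE (5.48 with no pseudocount, 4.36 with 1) and LysP (3.79 and 2.77). The log2 difference of the summed copies, 4.36, was 2.36 with all 7 members summed, and 4.29 without LysC and 4.28 by FPKM times length, both chosen after seeing the data. The calls among the 7 depended on the threshold: 1 at q of at most 0.05 and at 0.01 (LysX), 2 at q of at most 0.1 (with LysD) and 4 at an unadjusted p no higher than 0.05. Over all genes, 280 were called, and 948 at that unadjusted p. Above a floor of 5 FPKM in 1 genotype, the median of peptidoglycan recognition genes was 0.079 in place of 0.16, and that of amylases and maltases 0.69 in place of 0.26. Groupings by 95% and 90% protein identity were not run, since no sequence was used here. No paired analysis was possible because the table holds 1 pooled value per genotype, and for the same reason no library could be left out. Depth is unknown, so the precision of LysE and LysP in control, both under 1 FPKM, cannot be stated.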

Other observations

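Peptidoglycan is also handled in the fly gut by peptidoglycan recognition proteins, some of which sense it and some of which cleave it as amidases. Of 13 such genes sought, 12 were listed, and 0 of them were called by Cuffdiff q in the authors' deposited table. By that q 1.40% of all genes were higher and 0.908% lower, so 0 of 12 says little. PGRP-SC1a and PGRP-SC2 had an unadjusted p no higher than 0.05 there. The median log2(FPKM + 1) difference of the 12 was 0.16, beside 3.67 for the lysozymes, where LysB, LysC, LysD and LysE are near-identical copies. PGRP-SC2, an amidase gene of the gut, stood at 118 FPKM in hsromega66 and 236 FPKM in control, with q = 0.0563 in the authors' deposited table. PGRP-SC1a, another amidase gene, stood at 1.79 FPKM in hsromega66 and 11.0 FPKM in control (q = 0.0955 in the authors' deposited table), and its near-identical copy PGRP-SC1b at 1.22 and 0.513 FPKM. The amidase genes PGRP-LB (24.1 FPKM in hsromega66 and 17.4 FPKM in control) and PGRP-SB1 (23.6 and 19.7 FPKM) lay above 0, as 48.2% of all genes did. Their ratios were 1.38 and 1.20, both with q = 0.998 in the authors' deposited table. PGRP-SB2 had the largest difference of the list, 4.52, which lay above those of LysB (3.67) and LysE (4.36). It was listed at 25.4 FPKM in hsromega66 and 0.146 FPKM in control (p = 0.170 in the authors' deposited table). Its ratio of 174 rests on a low control value. The direct contrast of these genes with the lysozymes was not tested.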
